A study of Homo sapiens with 6 samples.

Results

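The genes examined were those of mitochondrial complex I, the NADH:ubiquinone oxidoreductase of the respiratory chain. They were taken by symbol as every protein-coding gene whose name is NDUFA, NDUFB, NDUFC, NDUFS, NDUFV or NDUFAF followed by a number, together with NDUFAB1. The rule gave 46 of the 29483 genes in the table, of which 38 carry subunit names and 8 are NDUFAF assembly factors. RNA was measured by sequencing in HK-2 cells, an immortalised human line derived from the renal proximal tubule. All 6 cultures were kept in high glucose (HG) medium at 25 mM for 7 days. The 3 replicates of the case group were then given 10 μM TEPP-46, an activator of the tetrameric form of pyruvate kinase M2, for 1 day, and the 3 replicates of the control group stayed in the same HG medium without it. The vehicle given to the control group is not given in the sources used here, so that an effect of a solvent cannot be told apart from that of TEPP-46, and no cells in normal glucose were included.

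Complex I passes electrons from NADH to ubiquinone and pumps protons across the inner mitochondrial membrane. It has an L shape: the matrix arm holds the flavin, the iron-sulfur clusters and the ubiquinone site, and the membrane arm holds the proton pumps. The core subunits of the matrix arm are encoded in the nucleus and those of the membrane arm by mitochondrial DNA, while the accessory subunits surround both. Assembly factors build, modify or stabilise intermediates and are absent from the finished enzyme. Proximal tubule cells of the kidney depend strongly on oxidative phosphorylation.

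The level of a gene is given as FPKM as deposited, that is, its fragments relative to gene length and library depth. Log2 fold changes compare case with control on the log2(FPKM + 0.1) scale after a scaling between libraries, with their standard error (SE), and a gene was called upregulated or downregulated at an adjusted p of at most 0.05 by limma over all 13599 genes whose FPKM averaged 0.5 or more. From the value of a single read, the reads counted on genes totalled 18634891, 17924033, and 17378710 (control, in order of replicate) and 16711934, 16047243, and 15363254 (case). Each count behind the FPKM is called 1 read here. The totals are not the sequencing depth, as the paper gives more clean reads for every library. All replicates came from 1 cell line, and the p-values measure only the spread between these cultures, which may be technical.

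The defining markers of the labelled cell type were at or near 0. The 8 proximal tubule markers in the table, among them LRP2 and CUBN (endocytic receptors of the brush border) and AQP1 (a water channel), summed to between 0.325 and 0.550 FPKM per library, and LRP2 was listed at 0 in 5 of the 6 libraries. PAX8, a transcription factor of renal epithelium, lay between 0.065 and 0.194 FPKM. The general epithelial genes KRT8 and KRT18 were abundant, at 246 to 356 FPKM and 158 to 202 FPKM. The 5 measured markers of endothelium, leukocytes and fibroblasts summed to at most 0.992 FPKM in any library, and most of that was CD14, which fell from 0.806 ± 0.161 to 0.264 ± 0.0290 FPKM (SD, n = 3 each).

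Most complex I genes lay higher in the case group, by small amounts. Of the 46 genes, 41 passed the filter on low values. Among these 41, 8 were upregulated (19.5%, against 7.34% of all tested genes) and 1 was downregulated (2.44%, against 5.84%). The log2 fold change was positive for 39 of the 41, with a median of 0.22, but for only 25 of them in TPM. In TPM, 2 of the 41 genes (NDUFB9 and NDUFB10) were upregulated and 1 downregulated, beside 383 of all genes upregulated and 2387 downregulated. The median of all tested genes was -0.00167, and it shifted by -0.19 in TPM. The case values lay above all control values for 16 genes (39.0%, against 19.5% of all tested genes) and below all of them for 1 (2.44%, against 20.4%). The upregulated genes were NDUFB9, NDUFB10, NDUFAB1, NDUFC2, NDUFA6, NDUFA10, NDUFA8, and NDUFB2, all of which are accessory subunits, and the downregulated gene was NDUFA5, also an accessory subunit.

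At an unadjusted p under 0.05, 19 of the 41 genes were higher (46.3%, against 16.8% of all tested genes) and 1 was lower (against 16.2%). All 9 calls were lost when any 1 control replicate, or case replicate 3, was left out, where limma called 0 of the 41 genes and 11 to 15 were higher and 1 lower at an unadjusted p under 0.05. Those fits called only 56 to 110 of all 13599 tested genes up and 16 to 66 down, so that 0 of 41 is near the background. The shares of all genes at an unadjusted p in those fits are not given here. Without case replicate 1, 6 of the 8 upregulated genes were still called, and NDUFA5, NDUFA8, and NDUFB2 were not. Without case replicate 2, 21 were upregulated and 1 downregulated, beside 1797 of all genes upregulated. With all 6 libraries, where 998 of all genes were upregulated, the members numbered 2 without the filter on low values (329 of all genes), 3 with a correction for gene length (665) or without the intensity trend (436), 11 by voom on whole reads (1312), and 15 with a correction for GC content (2129).

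**Figure D1:**
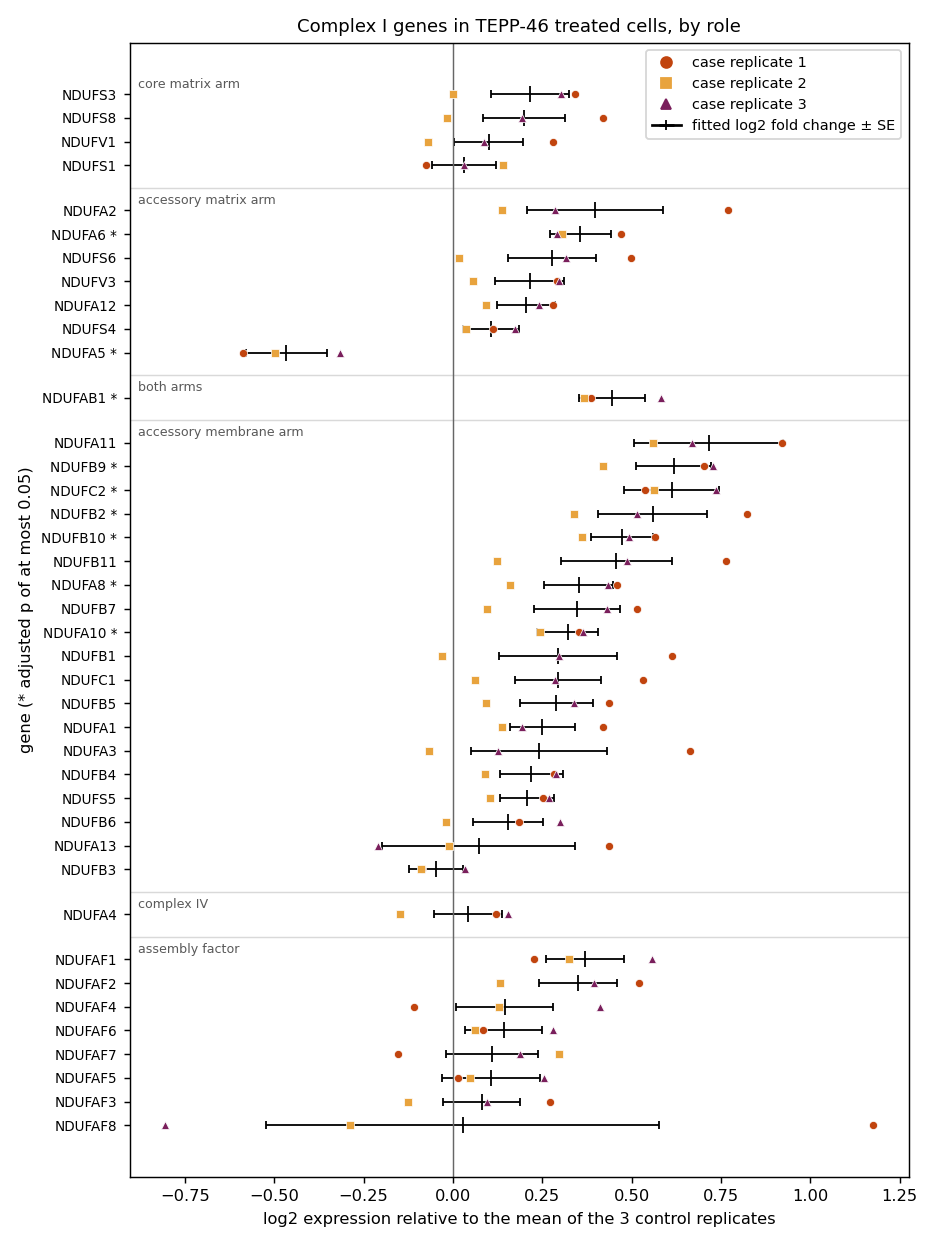
Log2 expression of 40 of the 41 tested complex I genes in each case replicate (points) relative to the mean of the control replicates, with the fitted log2 fold change and its SE (bars) and the genes grouped by role. Most points lie right of 0, case replicate 2 is the lowest of the 3 for most subunits, NDUFA5 alone has all its points clearly left of 0, and NDUFAF8 spans from -0.80 to 1.18.

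The core subunits of the matrix arm carry the electrons from NADH to ubiquinone. None of the 5 that were tested was called by limma, and none had an unadjusted p under 0.05. None had its 3 case values all above or all below its control values, and their median log2 fold change was 0.10. Of all tested genes, 7.34% were called up and 5.84% down, so that 0 calls among 5 genes is near the background. At an unadjusted p under 0.05, 16.8% of all tested genes were higher and 16.2% lower. Case values lay all above the control values for 19.5% and all below for 20.4%. NDUFV1, which binds the flavin and takes up NADH, was measured at 65.1, 64.3, and 64.2 FPKM in the control group and 71.6, 60.2, and 65.4 FPKM in the case group. The case values of NDUFV1 lay on both sides of the control values (log2 fold change 0.10, SE 0.10, adjusted p = 0.507). NDUFS1, the largest subunit and a carrier of iron-sulfur clusters, gave 0.032 (SE 0.090). NDUFS3 (0.22, SE 0.11) and NDUFS8 (0.20, SE 0.12) had the larger values of this group but did not pass the test (adjusted p = 0.205 and 0.264). NDUFS3 was called without case replicate 2 (0.0308), and NDUFS8 with the GC correction (0.0291) or the length and GC correction (0.0327).

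Of 7 tested accessory subunits of the matrix arm, 1 was upregulated and 1 downregulated (14.3% each, against 7.34% and 5.84% of all tested genes), with a median log2 fold change of 0.21. NDUFA6, a small LYR-motif protein that docks the acyl carrier protein on this arm, lies on chr22:42085526-42090884 of GRCh38. It was measured at 52.3, 52.1, and 58.6 FPKM in the control group and 68.8, 65.7, and 63.2 FPKM in the case group. Every case value of NDUFA6 was above every control value, and the gene rose by 0.36 on the log2 scale (SE 0.09, adjusted p = 0.0353).

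NDUFA5, on chr7:123536997-123557904 of GRCh38, was the only complex I gene that fell. Its FPKM was 9.03, 10.6, and 11.2 in the control group and 6.20, 7.07, and 7.82 in the case group, equal to 1658, 1877, and 1915 reads against 1021, 1118, and 1184 reads. The groups did not overlap, and the log2 fold change was -0.47 (SE 0.11, adjusted p = 0.0357). Its exons hold 35.1% G and C, the lowest share among the 46 genes, against a median of 49.0% for all tested genes. After a correction for GC content the value was -0.30 (adjusted p = 0.0564), which no longer passed the threshold. A correction for gene length gave -0.28 (adjusted p = 0.144), and both corrections together gave -0.13 (adjusted p = 0.470). The annotation lists 12 NDUFA5 pseudogenes, and the 3 of them in the table summed to between 1.05 and 5.04 FPKM per library, so that the division of reads between near-identical copies is uncertain. Among the upregulated members, pseudogenes are also annotated for NDUFB9 (3), NDUFB10 (2), and NDUFB2, NDUFA8, and NDUFAB1 (1 each). For NDUFC2, NDUFA6, and NDUFA10 there are 0. Reads of members with pseudogenes may carry the same uncertainty.

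The remaining accessory subunits of this arm were not called in the main processing. NDUFA2 (0.40, SE 0.19) was measured at 5.55, 4.31, and 6.30 FPKM in the control group and 8.36, 5.74, and 6.21 FPKM in the case group, and only case replicate 1 stood clear of the control values. NDUFS6, a zinc-binding subunit, gave 0.28 (SE 0.12), NDUFV3 gave 0.21 (SE 0.097), and NDUFS4, a subunit often mutated in inherited complex I deficiency, gave 0.11 (SE 0.078). NDUFS6 was called upward with the GC correction (adjusted p = 0.0440), and NDUFS6 and NDUFV3 were each called in 1 fit that left out a replicate.

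NDUFA12 is set beside its paralogue NDUFAF2, the assembly factor that holds the place of NDUFA12 while the matrix arm is built. NDUFA12 was measured at 48.7, 46.2, and 50.3 FPKM in the control group and 53.7, 50.4, and 54.4 FPKM in the case group. NDUFAF2 was measured at 58.7, 57.7, and 64.3 FPKM in the control group and 79.0, 64.5, and 75.4 FPKM in the case group. For both genes the case values were above the control values, but neither passed the threshold (NDUFA12 0.20, SE 0.08, adjusted p = 0.125, and NDUFAF2 0.35, SE 0.11, adjusted p = 0.0685). Without case replicate 2, where 1797 of all genes were upregulated, both were called upward (NDUFA12 0.26, adjusted p = 0.0369, and NDUFAF2 0.46, adjusted p = 0.0124).

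The accessory subunits of the membrane arm held most of the upregulated genes. Of 19 tested, 6 were upregulated (31.6%, against 7.34% of all tested genes) and 0 downregulated by limma, 14 were higher and 0 lower at an unadjusted p under 0.05 (73.7% higher, against 16.8% of all tested genes), 11 had case values above all control values (57.9%, against 19.5%), and the median log2 fold change was 0.29. NDUFB9, another LYR-motif protein, which docks the acyl carrier protein at the far end of the membrane arm, had the smallest adjusted p of all members. Its FPKM was 20.9, 18.6, and 21.0 in the control group and 30.0, 26.4, and 31.9 in the case group, and it rose by 0.62 (SE 0.11, adjusted p = 0.0157). The lowest case value of NDUFB9 was well above the highest control value.

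NDUFB10, a subunit with paired cysteine motifs on the intermembrane side, lies on chr16:1959538-1961975. It was measured at 73.2, 68.6, and 78.5 FPKM in the control group and 99.2, 92.2, and 98.2 FPKM in the case group. The groups were again fully separate, and the log2 fold change was 0.47 (SE 0.09, adjusted p = 0.0183). NDUFA8, with cysteine motifs of the same kind, was measured at 93.0, 91.5, and 98.1 FPKM against 118, 102.9, and 121 FPKM and rose by 0.35 (SE 0.10, adjusted p = 0.0495). Of the 2 further subunits with this motif, NDUFB7 gave 0.35 (SE 0.12, adjusted p = 0.0888) and NDUFS5 gave 0.21 (SE 0.08, adjusted p = 0.103). Both were called upward without case replicate 2 (adjusted p = 0.0123 and 0.0221), and NDUFB7 also with the GC correction (0.0159) and with the length and GC correction (0.0491).

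NDUFA10, a subunit with a nucleoside kinase fold, was measured at 8.62, 8.93, and 8.05 FPKM in the control group and 9.98, 9.91, and 10.5 FPKM in the case group. It rose by 0.32 (SE 0.09, adjusted p = 0.0454), and its 3 case values lay within a narrow range. NDUFB2, a small membrane-spanning subunit, was measured at 3.67, 2.97, and 3.88 FPKM against 5.71, 4.34, and 4.79 FPKM. It rose by 0.56 (SE 0.15, adjusted p = 0.0496), with case replicate 1 the highest.

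NDUFC2, another small membrane-spanning subunit, rose by 0.61 (SE 0.13, adjusted p = 0.0266) on few reads. It had 68, 62, and 70 reads in the control group and 84, 88, and 93 reads in the case group, or 1.38, 1.30, and 1.52 FPKM against 1.90, 2.07, and 2.28 FPKM. NDUFA11, also membrane-spanning, had the largest log2 fold change of all members, 0.72 (SE 0.21), also on few reads. It had 65, 55, and 78 reads against 112, 88, and 89 reads, and although the groups did not overlap, it missed the threshold (adjusted p = 0.0574). It was called upward with quantile normalization (adjusted p = 0.0499), with voom on whole reads (0.0169), with the GC correction (0.0292), with the length and GC correction (0.0247) and without case replicate 2 (0.0451). NDUFB11, a membrane-spanning subunit encoded on the X chromosome, was measured at 61.4, 54.1, and 64.3 FPKM in the control group and 92.8, 63.7, and 79.9 FPKM in the case group. The groups separated after scaling between the libraries, with a log2 fold change of 0.46, but case replicate 2 was near the control values and the threshold was missed (SE 0.16, adjusted p = 0.0862). NDUFB11 was called upward by voom on whole reads (adjusted p = 0.0326), with the GC correction (0.0369), and in 1 fit that left out a replicate. NDUFA1, also X-linked, gave 0.25 (SE 0.092, adjusted p = 0.103), with case values above all control values. NDUFB1, NDUFB4, NDUFB5, NDUFB6, NDUFC1, and NDUFA3 were not called, with values from 0.16 (NDUFB6, SE 0.098) to 0.29 (NDUFB1, SE 0.16). NDUFA13, also known as GRIM-19, gave 0.072 (SE 0.27) on 23 to 43 reads per library. NDUFB3 had the only other negative value besides NDUFA5 (-0.047, SE 0.077, adjusted p = 0.702).

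NDUFAB1, the mitochondrial acyl carrier protein, is the one subunit present in both arms, where NDUFA6 and NDUFB9 hold it, and it also serves mitochondrial fatty acid synthesis. It was measured at 54.8, 51.2, and 47.8 FPKM in the control group and 61.1, 64.6, and 73.0 FPKM in the case group. It rose by 0.44 (SE 0.09, adjusted p = 0.0237). The carrier and both of its docking subunits were among the 8 upregulated genes.

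**Figure D2:**
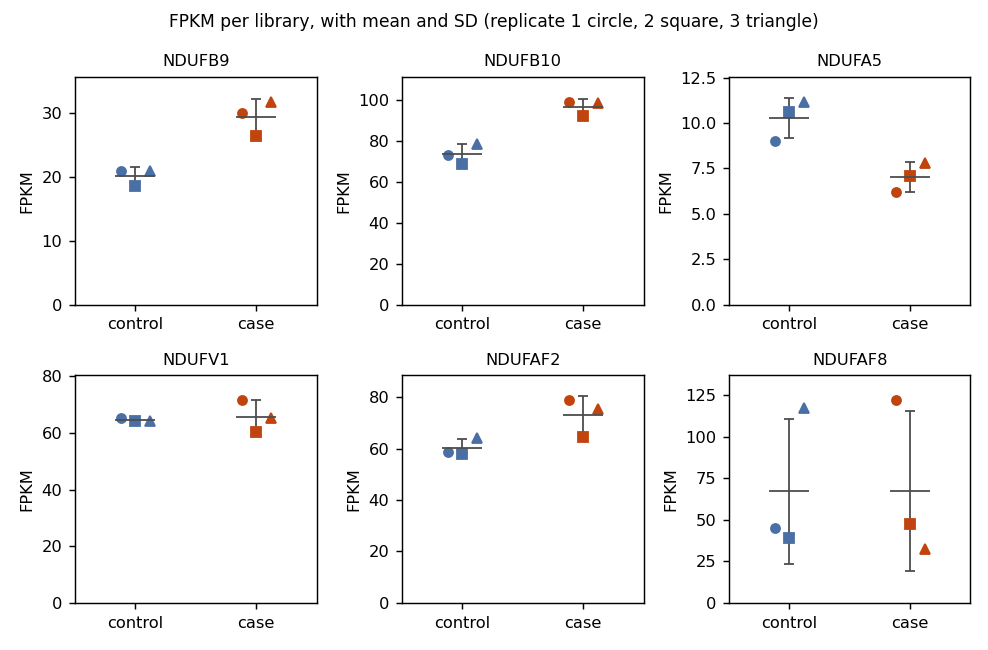
FPKM of 6 complex I genes in each library of the control group (blue) and the case group (red), with the mean and SD of 3 replicates and axes that start at 0. NDUFB9 and NDUFB10 lie higher and NDUFA5 lower in every case replicate, NDUFV1 overlaps between the groups, NDUFAF2 is slightly separated, and NDUFAF8 is high in 1 replicate of each group.

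The 8 assembly factors showed 0 calls by limma in either direction, where 7.34% of all tested genes were called up and 5.84% down. NDUFAF1 and NDUFAF2 had an unadjusted p under 0.05 (25.0%, against 16.8%), and the case values of both lay above all control values. NDUFAF1, a member of the complex that assembles the membrane arm, was measured at 9.08, 8.01, and 8.20 FPKM in the control group and 9.03, 10.3, and 11.9 FPKM in the case group. Its log2 fold change was 0.37 (SE 0.11, adjusted p = 0.0594), and the groups separated only after scaling between the libraries. Some alternatives called a factor upregulated: NDUFAF1 with an FPKM filter of 1 (adjusted p = 0.0495), with the GC correction (0.0268) or without case replicate 1 (0.0331), NDUFAF2 by voom (0.0389) or without case replicate 2 (0.0124), and NDUFAF4 with the GC correction (0.0483). NDUFAF3 and NDUFAF4, which work together on the part of the matrix arm that binds ubiquinone, gave 0.081 (SE 0.11) and 0.14 (SE 0.13). The methyltransferase NDUFAF7 gave 0.11 (SE 0.13), and NDUFAF5, which hydroxylates NDUFS7, also gave 0.11 (SE 0.14). NDUFAF6, needed for an early membrane arm intermediate, gave 0.14 (SE 0.11). None of these passed the test, with adjusted p values from 0.397 to 0.634.

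NDUFAF8, the partner of NDUFAF5, varied more between replicates on the log2 scale than any other tested member. Its FPKM was 45.0, 39.0, and 118 in the control group and 122, 47.4, and 32.2 in the case group. Control replicate 3 and case replicate 1 were high, at 2812 and 2811 reads, while the other libraries held 681 to 1155 reads. The group difference was 0.028 with an SE of 0.55, so that a change of NDUFAF8 as small as those of the called members would not have been detectable here.

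Set side by side, the subunits had a median log2 fold change of 0.25 over 33 tested genes and the assembly factors one of 0.13 over 8. In case replicates 1, 2, and 3 the subunits had medians of 0.42, 0.091, and 0.29 above the control mean, and the assembly factors of 0.16, 0.096, and 0.27, or of 0.084, 0.13, and 0.28 without NDUFAF8. The subunits were thus clearly the higher of the pair in case replicate 1 and close to the factors in the other 2 replicates. Without case replicate 1 the order turned, with 0.18 for the subunits and 0.21 for the factors, and with quantile normalization it was 0.16 and 0.18. Without both libraries high in NDUFAF8, the medians were nearly equal, at 0.2135 for the subunits and 0.2165 for the factors. After the correction for gene length the medians were 0.16 and 0.094. The difference between subunits and factors was not tested. In TPM, the subunits had a median of 0.051 and the factors of -0.068, which is 0.25 and 0.13 above the shift of all tested genes.

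Promoter sequence is shown for members with opposite calls that share a motif, and for a pair called alike. Windows from 250 bases before to 50 bases after the transcription start were taken from RefSeq (GRCh38.p14) and found for 39 of the 46 genes. Both strands were searched for 7 short motifs. The NRF1 motif GCATGCGC was found in 8 of the 39 genes (20.5%, against 3.68% of the 27305 genes with a window), and the YY1 motif AAGATGGC also in 8 (20.5%, against 3.52%). The ETS motif CCGGAAG was found in 7 (17.9%, against 12.2%) and the SP motif GGGCGGGG in 11 (28.2%, against 26.1%). The cyclic AMP response element TGACGTCA was found in 2 (5.13%, against 2.25%), which were NDUFA10 and NDUFB2. The heat shock motif TTCTAGAA and the ATF4 motif TGATGCAA were found in 0 of the 39, and in 1.22% and 1.08% of all genes. Matches of different motifs did not overlap in any member. Stretches of 100 bases upstream of the start follow, on the strand of the gene, with the NRF1 motif (NDUFA5, NDUFA6) or the cyclic AMP response element (NDUFA10, NDUFB2) in capitals.
NDUFA5: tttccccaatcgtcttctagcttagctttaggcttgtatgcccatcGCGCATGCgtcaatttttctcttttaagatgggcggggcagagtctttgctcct
NDUFA6: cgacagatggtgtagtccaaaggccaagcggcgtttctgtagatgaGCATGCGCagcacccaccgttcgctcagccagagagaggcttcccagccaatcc
NDUFA10: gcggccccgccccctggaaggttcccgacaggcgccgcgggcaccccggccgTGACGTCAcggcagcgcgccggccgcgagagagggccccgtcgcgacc
NDUFB2: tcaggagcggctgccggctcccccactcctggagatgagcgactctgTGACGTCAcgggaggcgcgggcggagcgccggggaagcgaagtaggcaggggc
The stretches lie on chr7:123557923-123558022 (minus strand), chr22:42090885-42090984 (minus strand), chr2:240025343-240025442 (minus strand) and chr7:140696608-140696707 (plus strand). The motif begins 158, 166, 48, and 53 bases before the start. On the strand of the gene, the NRF1 motif reads GCATGCGC in NDUFA6 and its reverse complement GCGCATGC in NDUFA5. It was thus found, in 1 orientation or the other, in the window of a gene called down and in those of genes called up (NDUFA6 and NDUFA8). The RNA of the factor NRF1 itself was measured at 5.88, 5.56, and 5.66 FPKM in the control group and 5.28, 5.65, and 4.58 FPKM in the case group and did not pass the test (adjusted p = 0.678).

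The levels of the subunits differed widely, although the finished enzyme holds most of them in equal numbers. NDUFS5 was the most abundant member, with a mean of 213 FPKM over the 6 libraries, followed by NDUFS6 (131 FPKM) and NDUFB7 (125 FPKM). At the other end, NDUFV2, NDUFS7, NDUFA7, NDUFA9, and NDUFB8 had a mean FPKM below 0.5 and were not tested, and NDUFA13 (0.698 FPKM), NDUFA11 (1.00 FPKM), and NDUFC2 (1.74 FPKM) were the lowest of those tested. NDUFV2 is the partner of NDUFV1 in the NADH-binding module. It had 5, 10, and 10 reads in the control group and 5, 9, and 23 reads in the case group, where NDUFV1 had 4015 to 5037. NDUFS7, the subunit that passes electrons to ubiquinone, had 18 to 50 reads per library, and NDUFB8 had 5 to 16.

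Most of the 8 members named here as lowest overlap other genes on the genome. Over a median of 70.1% of the bases of their canonical transcript, exons of another annotated gene cover the same bases, and 6 of the 8 have a readthrough gene, an annotated gene that runs on from a neighbour. For the other 38 members the median overlap was 0%, and 1 has a readthrough gene. Of the readthrough genes of the 8, those of NDUFA7 and NDUFA13 are in the table, at 0.0925 FPKM or less in every library. No row was found there for the others. The overlap was 90.0% for NDUFV2, 83.9% for NDUFA13, 72.0% for NDUFB8, 68.2% for NDUFA11, and 51.3% for NDUFS7, but 22.3% for NDUFC2 and 11.7% for NDUFA9. The limit of 200 reads that separates the 8 genes from the rest was set after the values were seen. How reads on shared bases were counted is not given in the sources used here, and its part in these low values was not tested. The values of these 8 genes are uncertain for that reason, those of the upregulated NDUFC2 among them. NDUFA2 (27.4%) and the upregulated NDUFB2 (24.3%) and NDUFB9 (23.9%) lie outside the 8 but overlap more than NDUFC2, and the same uncertainty applies to them.

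**Figure D3:**
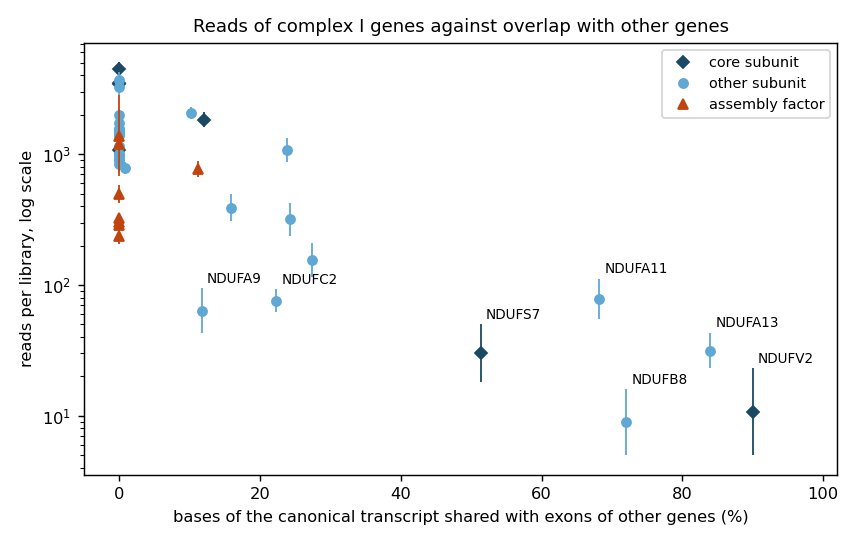
Reads per library (vertical, log scale; lines span the lowest to the highest library) of 45 complex I genes against the share of their canonical transcript covered by exons of other genes. NDUFA7 is left out because its reads were not resolved. All genes with a share above 50% have under 200 reads in every library.

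NDUFA4 is named as a complex I subunit but is placed today with complex IV. It was measured at 64.6, 61.0, and 63.9 FPKM in the control group and 62.8, 55.8, and 66.9 FPKM in the case group, and the groups overlapped (0.043, SE 0.096, adjusted p = 0.789). Its paralogue NDUFA4L2, which is known to be induced in hypoxia, was low, at 0.822, 0.954, and 1.17 FPKM against 1.68, 1.27, and 1.18 FPKM. The value of NDUFA4L2 was 0.52 (SE 0.21) and did not pass the test (adjusted p = 0.134).

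The 7 core subunits of the membrane arm are encoded by mitochondrial DNA. Of these, MT-ND1, MT-ND2, MT-ND4, and MT-ND6 were upregulated (57.1%, against 7.34% of all tested genes) and 0 were downregulated. MT-ND2 was measured at 1405, 1372, and 1345 FPKM in the control group and 1744, 2279, and 2146 FPKM in the case group and rose by 0.65 (SE 0.10, adjusted p = 0.0127). Case replicate 2 was the highest library for MT-ND2, whereas it was the lowest case replicate for most nuclear subunits. The median over the 7 genes relative to the control mean was 0.43, 0.67, and 0.54 in case replicates 1, 2, and 3. MT-ND3, MT-ND4L, and MT-ND5 overlapped between the groups. The calls of MT-ND1, MT-ND2, and MT-ND4 were lost without any 1 control replicate and without case replicate 3, with log2 fold changes of 0.52 to 0.67 in those fits, and that of MT-ND6 without control replicate 1 or 2 or case replicate 1 or 3. The correction for gene length ended all 4 calls (0.37 to 0.48), and quantile normalization gave 0.28 for MT-ND1, 0.32 for MT-ND2, 0.32 for MT-ND4, and 0.27 for MT-ND6, of which MT-ND2 alone was called.

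**Figure D4:**
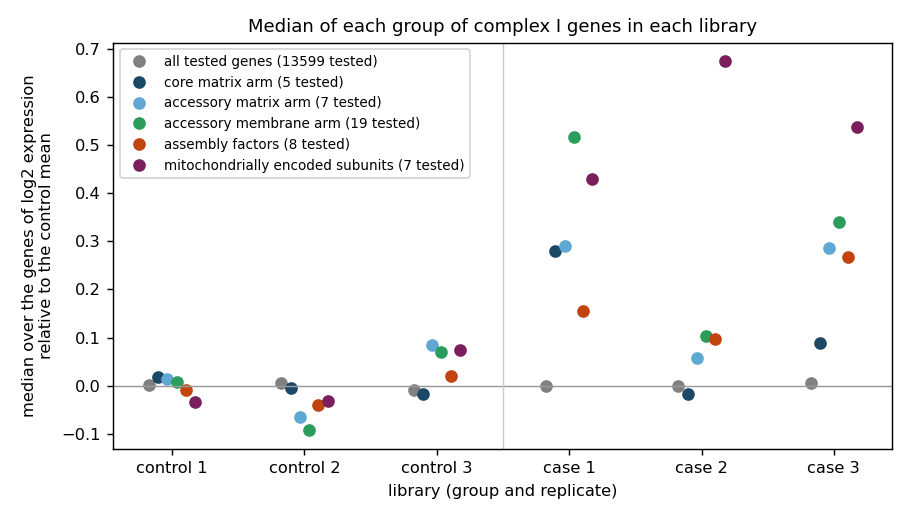
Median of each group of genes in each library, as log2 expression relative to the control mean. All groups of complex I genes lie near 0 in the control libraries. Among the case replicates, the medians of the nuclear groups are lowest in replicate 2 (for the assembly factors in replicate 1 if NDUFAF8 is left out), where that of the mitochondrially encoded subunits is highest at 0.67.

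Of the 12 other assembly factors, which have no NDUFAF name, 1 was upregulated (8.33%, against 7.34% of all tested genes), 1 was downregulated (8.33%, against 5.84%) and 10 were not called, with a median log2 fold change of 0.13. TMEM70, which acts in the assembly of the membrane arm and of the ATP synthase, was measured at 15.6, 14.5, and 14.2 FPKM against 16.5, 18.8, and 20.4 FPKM and rose by 0.40 (SE 0.09, adjusted p = 0.0304). NUBPL, which is needed for the iron-sulfur clusters of complex I, was measured at 4.87, 4.86, and 5.06 FPKM against 3.15, 3.74, and 3.80 FPKM. It fell by 0.39 (SE 0.10, adjusted p = 0.0380). Both calls were lost without any 1 control replicate and without case replicate 3, where TMEM70 gave 0.34 to 0.44 and NUBPL -0.43 to -0.37. In TPM 0 of the 12 were called upward (TMEM70, adjusted p = 0.175) and 4 downward, which were NUBPL (adjusted p = 0.0170), ACAD9 (0.0242), TMEM126B (0.0397) and FOXRED1 (0.0412). Of all genes, TPM called 383 up and 2387 down. With the GC correction, TMEM70 (adjusted p = 0.0128), TIMMDC1 (0.0275), TMEM186 (0.0330), and ECSIT (0.0405) were called upward and NUBPL (0.0166) downward. That correction called 2129 of all genes up and 1273 down.

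Nuclear subunits of the other complexes of oxidative phosphorylation are given for comparison. Of 39 tested genes of complexes II to V, 4 were upregulated (SDHD, UQCRFS1, ATP5MC2, and ATP5PF; 10.3%, against 7.34% of all tested genes) and 0 downregulated, 20 were higher and 0 lower at an unadjusted p under 0.05 (51.3% higher, against 16.8%), and the median log2 fold change was 0.24. All 4 calls were lost when any 1 control replicate, or case replicate 3, was left out, that of ATP5PF also without case replicate 1, and in TPM SDHD alone of the 4 was called (adjusted p = 0.0446). SDHA, the flavoprotein of complex II, was called downward in TPM (log2 fold change -0.32, adjusted p = 0.0182), so that TPM gave 1 gene up and 1 down. Of all genes, TPM called 383 up and 2387 down. Further genes of the 39 were called upward with the GC correction, among them COX4I1 (adjusted p = 0.0173), COX5B (0.0235), and ATP5F1A (0.0263). That correction called 2129 of all genes up. By voom on whole reads, with 1312 of all genes up, COX4I1 (0.0256) and COX5B (0.0199) were also called. Voom further called ATP5PD (adjusted p = 0.0226), ATP5F1A (0.0407), ATP5PO (0.0483), and UQCRH (0.0495) upward. In case replicates 1, 2, and 3 the median of the 39 genes was 0.33, 0.081, and 0.32, so that case replicate 2 was again the lowest. Among 6 tested regulators of mitochondrial gene expression (PPRC1, NRF1, GABPA, ESRRA, YY1, and TFAM), 0 were called in limma and 0 had an unadjusted p under 0.05. In TPM, where 2387 of all genes were downregulated, PPRC1 was called downward (log2 fold change -0.29, adjusted p = 0.0439). With the GC correction, where 2129 of all genes were upregulated, ESRRA was called upward (0.25, adjusted p = 0.0254). In the main processing, the median log2 fold change of the 6 was -0.03, and with 6 genes the count of 0 is near the shares of all tested genes (7.34% called up and 5.84% down).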

How the data were processed

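HK-2 cells of the control and case groups were sequenced in 3 libraries each. The authors filtered paired-end reads, aligned them to GRCh38.p13 with HISAT2 2.1.0, counted them per gene with HTSeq 0.6.0, and deposited FPKM. The annotation version, strandedness and RNA selection are not given in the sources used here. Here, FPKM were divided by median-of-ratios factors, and log2(FPKM + 0.1) was tested in limma 3.58.1 (R 4.3.3) with an intensity trend, over genes averaging 0.5 FPKM or more, with Benjamini-Hochberg adjustment. Whole reads were recovered from the value of 1 read per library and a gene length, for 45 of the 46 members. The GENCODE exon length was used where it gave whole reads, and otherwise the smallest length that did so in every library. Read counts of many members thus rest on an inferred length, such as 9851 bases for NDUFA5 (13738 in GENCODE) and 2652 for NDUFC2 (2302). FPKM is relative, so a fold change is relative to the other genes. An exact permutation test of 3 against 3 cannot go below p = 0.1 and was not used. Symbols and positions came from a GRCh38 annotation by Ensembl identifier. The procedure was tested on simulated data. The members and lists were chosen with earlier results of these data known. The named genes are the called members, the assembly factors, the core subunits, NDUFA12, NDUFAB1, NDUFA4, NDUFA4L2, NDUFA5, and the extremes of level and fold change (1 member is counted but not reported singly here); other genes named were chosen after their values were seen. Alternatives were other pseudocounts, filters, scalings and limma settings, length and GC corrections, voom on whole reads, a replicate block, and leaving out libraries.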

Additional observations from a re-analysis of the deposited data

How the results depend on the processing

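Over 22 alternatives to the main processing, 36 named genes gave 790 comparisons, of which 569 kept their direction and side of the threshold, 157 lost the call, 21 gained it, and 43 changed sign. The 9 called members kept their direction under every alternative run. Across all genes, 998 were called up and 794 down, and among the members 8 up and 1 down. Leaving out 1 replicate at a time gave 56 to 1797 genes up and 16 to 1655 down, and 0 to 21 members up and 0 to 1 down. The medians then ranged from 0.18 to 0.36 for the subunits and from 0.074 to 0.21 for the assembly factors.

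Without the filter on low values, 329 genes were called up and 191 down, with 2 members up and 0 down. Unscaled FPKM gave 662 genes up and 5 members up. TPM gave 383 genes up and 2387 down, 2 members up, and medians of 0.051 for the subunits and -0.068 for the assembly factors. Without the intensity trend, 436 genes were up and 416 down, with 3 members up and 0 down. The length correction gave 665 genes up, with 3 members up and 0 down, and the length correction with the replicate block gave 30 up and 10 down, with 0 members either way. Voom on whole reads gave 1518 genes down. The GC correction gave 2129 genes up and 1273 down, with 15 members up and 0 down, and length and GC correction together gave 1600 genes up and 0 members down. Without the 2 libraries high in NDUFAF8, 92 genes were up and 34 down, 0 members were called, and the median of the assembly factors was 0.22. Voom, the GC corrections and the last of these were chosen after seeing the data. The cause of these differences was not tested.

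The genes that changed sign were not called in the main processing. In TPM, values were -0.10 for NDUFA13, -0.16 for NDUFA4, -0.12 for NDUFAF3, -0.054 for NDUFAF4, -0.083 for NDUFAF5, -0.052 for NDUFAF6, -0.086 for NDUFAF7, -0.17 for NDUFAF8, -0.17 for NDUFS1, -0.000497 for NDUFS8, and -0.10 for NDUFV1. Unscaled, they were -0.034 for NDUFA4, -0.049 for NDUFAF8, and -0.045 for NDUFS1. With quantile normalization, they were -0.12 for NDUFA4, -0.13 for NDUFAF8, -0.036 for NDUFS5, and -0.061 for NDUFV1. The length correction, alone or with the replicate block, gave -0.075 for NDUFA13, -0.062 for NDUFA4, -0.071 for NDUFAF3, -0.0079 for NDUFAF4, and -0.13 for NDUFAF8. The GC correction gave 0.028 for NDUFB3, and length and GC correction together gave -0.039 for NDUFAF8. Without the 2 libraries high in NDUFAF8, values were -0.20 for NDUFA13, -0.028 for NDUFAF3, -0.051 for NDUFAF8, and 0.010 for NDUFB3. Leaving out 1 replicate at a time, NDUFA13 ranged from -0.11 to 0.21, NDUFA4 from -0.012 to 0.14, NDUFAF3 from -0.012 to 0.18, NDUFAF8 from -0.54 to 0.52, and NDUFS1 from -0.022 to 0.088.

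The labels give replicates of the same number nothing in common beyond that number. Their deviations from the group means correlated with r of 0.0634, 0.0999, and -0.0535 over the tested genes. Over all pairs of a control and a case replicate, r ranged from -0.182 (control replicate 2 with case replicate 1) to 0.117. The highest value was that of control replicate 3 with case replicate 1, the libraries high in NDUFAF8. With the replicate block alone, 848 genes were called up and 762 down, with 6 members up and 1 down. In this block fit NDUFA6, NDUFA8, and NDUFA10 were not called. Members under 200 reads rest on few reads, and NDUFAF8 on replicates that spread widely.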

Other observations

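High values in control replicate 3 and case replicate 1 were shared with NDUFAF8, at the size described next, by few other genes. In the paper's quality control, these 2 libraries had the largest shares of adapter-polluted reads and of reads with undetermined bases (N). A link between those shares and NDUFAF8 was not tested. Among 4331 genes averaging 10 FPKM or more, 5 had both libraries at least 1 above the highest of the other 4 on the log2 scale, and NDUFAF8 had the third-largest gap, at 1.31. C4orf48 was measured at 18.9, 15.4, and 100.2 FPKM in the control group and 113, 17.3, and 18.6 FPKM in the case group. RAB5IF gave 8.88, 8.05, and 28.4 FPKM against 33.7, 12.2, and 4.33 FPKM, and PCSK1N gave 6.50, 6.47, and 16.9 FPKM against 17.6, 7.18, and 5.59 FPKM. Leaving out these 2 libraries gave 0 calls among the members in limma, where only 92 of all genes were called up and 34 down. At an unadjusted p under 0.05, 15 members were higher and 1 lower in that fit, for which the share of all genes is not given here. These genes were picked from their values.

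The replicates of the case group spread more than those of the control group. On the log2 scale, the median SD of all tested genes was 0.0886 (control) and 0.189 (case), and that of the complex I subunits 0.0811 and 0.165. Subunit genes were shorter than most, with a median exon length of 2708 bases against 4722 bases for all tested genes.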
